A study of Mus musculus with 8 samples.

Results

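Vascular smooth muscle cells of fractured and unfractured mouse bone were picked out by their own transcripts, and 939 of 45328 cells were found. A barcode was kept as a cell where it held 500 to 6000 genes and where at most 25% of its unique molecular identifiers (UMIs, the tags that count captured RNA molecules) came from mitochondrial genes. A kept cell was taken as a Myh11 smooth muscle cell where it had at least 2 UMIs of Myh11 and at least 3 of Acta2 and Tagln together, no UMI of the endothelial gene Cdh5 or the leukocyte gene Ptprc, and at most 1 of the adipocyte gene Adipoq. Cells with 100 or more UMIs of the osteoblast genes Bglap and Bglap2, or 40 or more of the cartilage genes Acan, Hapln1 and Matn3, per 10000 UMIs were left out. Of the kept cells, 1192 passed the Myh11 limit, 1112 also passed that on Acta2 and Tagln, and 939 passed every criterion. The levels of these 11 genes chose the cells, so they are described below and not tested.

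The cells came from femurs of 12-week-old female C57BL/6 mice with no genetic change. Control mice were unfractured, with no sham operation described, and Fracture mice were taken 14 days after the left leg was broken by three-point bending at 10 weeks of age and splinted with an intramedullary nail, under ketamine and xylazine anaesthesia and with carprofen as pain relief. The bones were digested and blood lineage cells were removed with magnetic beads before loading on the droplet platform, so that a Fracture sample mixes callus with the rest of the bone. Each group had 2 preparations and each preparation 2 libraries, which were summed, and how many mice a preparation held is not given in the sources used here. P-values then measure the spread between preparations, which may be technical.

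Smooth muscle cells wrap arteries and arterioles and set the width of the vessel. A rise of calcium activates myosin light chain kinase, myosin heavy chain then pulls on actin filaments, and potassium channels, calcium pumps and vasodilator signals oppose it. The genes of this apparatus are held high by serum response factor with its partner myocardin and by Notch3, and after vessel injury smooth muscle cells are known to lower them, divide and secrete matrix, a state called synthetic or modulated. In bone, smooth muscle cells lie on the few arteries of marrow and cortex, while capillaries carry pericytes or stromal cells.

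The 8 libraries held 56543151 to 89126291 UMIs. Depth and mitochondrial share differed between the groups among the smooth muscle cells themselves, with a median of 4721 UMIs and 6.82% mitochondrial UMIs in Control and of 7787 UMIs and 2.88% in Fracture, and the part of this in the results below was not tested beyond the thinned values given. Where a gene test below is given after thinning to 3000 UMIs, thinning only chose the cells, and their full UMIs were summed. Depth was thus not made equal in those tests. That choice held 481 and 146 Control and 41 and 55 Fracture cells. No 2 libraries shared more than 23 barcodes of kept cells, and no barcode of a smooth muscle cell was shared. A doublet caller marked 12 of the 939 cells, but it hardly worked in some libraries, where it marked as few as 1 of 6069 cells, so a version without the highest scores was also run.

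The label held up against marker genes that the choice did not use. Over all kept cells of the same preparation, the smooth muscle cells were at least 34.7-fold higher in Lmod1, a nucleator of actin filaments, at least 37.0-fold in calponin Cnn1, at least 38.2-fold in Myocd, the gene of myocardin, and at least 30.2-fold in Actg2, the gamma actin of visceral muscle. Smoothelin Smtn was the least selective marker, at 1.55-fold or more. All genes were also ordered by their smallest fold over all kept cells in any preparation, after a constant was added to every level. Acta2, Tagln and Myh11 came first, but the rule had required them. After them came Rgs5, Tpm2, Myl9, Aoc3, Ppp1r14a, Olfr558, Lmod1 and Notch3. Pericyte genes were present too: Rgs5, a brake on G protein signals that marks mural cells, was at least 27.6-fold and Higd1b at least 29.7-fold over all cells. The other pericyte markers were less enriched, at 19.3-fold or more for Notch3, 12.9-fold for Vtn and 12.7-fold for Mcam. Pdgfrb was at least 4.02-fold, Kcnj8 2.96-fold and Abcc9 2.28-fold higher, and Cspg4, at 0.937-fold or more, was not enriched in every preparation. Pericyte genes were thus not absent from the set.

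Fewer such cells were recovered after fracture. Control preparations 1 and 2 held 598 and 173 smooth muscle cells and Fracture preparations held 74 and 94, or 4.69% and 2.18% of kept cells against 0.624% and 0.735%. The Fracture shares lay below both Control shares, but the Control preparations differed from each other by more than the Fracture preparations did. The means were 3.44% ± 1.77 (SD, n = 2) and 0.679% ± 0.0790 (SD, n = 2), a 5.06-fold difference (p = 0.333, two-sided exact permutation test, the smallest p that 2 against 2 preparations allow). The exact 95% binomial intervals, which cover counting error only, ran from 1.87% to 2.53% in Control preparation 2 and from 0.595% to 0.899% in Fracture preparation 2.

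The direction did not depend on what the cells were counted against. Among cells without Ptprc the shares were 5.39% and 2.41% in Control and 0.628% and 0.740% in Fracture, and per 100 Cdh5-positive cells, which stand for the endothelium, there were 40.7 and 15.4 against 6.02 and 6.54 smooth muscle cells (each p = 0.333, exact permutation test). Against other mural cells the change was of a different kind. Cells with at least 2 UMIs of Rgs5, no Myh11 and the same other limits numbered 38 and 18 in Control and 69 and 74 in Fracture. Smooth muscle cells thus made up 94.0% and 90.6% of both sets together in Control and 51.7% and 56.0% in Fracture (p = 0.333, exact permutation test). Those Rgs5 cells are a mixed set: 62 of the 199 held 20 or more UMIs per 10000 of Prg4, the lubricin gene of joint lining and tendon, against 1 of the 939 smooth muscle cells. With only the Rgs5 cells low in Prg4, under 5 UMIs per 10000, the shares were 96.0% and 94.5% against 58.7% and 67.6%. A cell that loses Myh11 transcripts leaves the set, so fewer cells and less Myh11 per cell cannot be told apart in these shares.

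**Figure D1:**
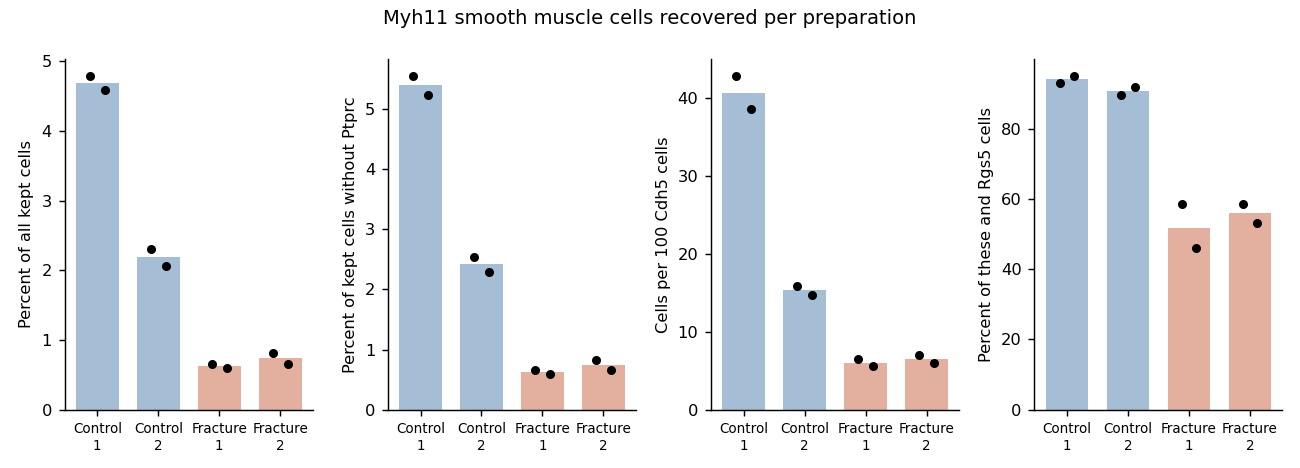
Myh11 smooth muscle cells per preparation on 4 denominators: percent of all kept cells, percent of kept cells without Ptprc, number per 100 Cdh5-positive cells, and percent of smooth muscle cells plus Rgs5 cells without Myh11. Bars are preparations (2 libraries summed) and points are their libraries; on each axis both Control bars stand above both Fracture bars, as 4.69% and 2.18% against 0.624% and 0.735% of all kept cells.

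The smooth muscle genes that the choice required were themselves lower after fracture. Levels are given throughout as CPM, the UMIs of a gene per 1000000 UMIs of the smooth muscle cells of a preparation, with Control preparations 1 and 2 before Fracture preparations 1 and 2. Myh11, the smooth muscle myosin heavy chain on chromosome 16 at 14194535 to 14291372 (minus strand, GRCm38), stood at 4236 and 3913 CPM in Control and 884 and 1149 CPM in Fracture. Acta2, smooth muscle alpha actin, stood at 18371 and 14997 against 10438 and 11087 CPM, and Tagln, the actin-binding transgelin, at 11435 and 8654 against 4561 and 4239 CPM. None of the 3 overlapped between Control and Fracture, which held for 68.8% of the 8891 genes tested below and so says little alone. The Myh11 limit bites at a different place in the 2 groups. Cells with exactly 2 UMIs of Myh11, just inside, numbered 20 in Control and 27 in Fracture, while cells with 1 UMI that passed every other criterion, just outside, numbered 8 in Control and 52 in Fracture. Those 52 held a median of 64 UMIs of Acta2 and Tagln, against 106.5 in the Fracture smooth muscle cells, and 589 CPM of Actg2. The cell by cell spread also differed, since the quartiles lay at 25.4 and 57.1 Myh11 UMIs per 10000 UMIs of a cell in Control preparation 1 and at 3.98 and 14.7 in Fracture preparation 1.

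The next comparison asked which genes differed between Fracture and Control within the smooth muscle cells. UMIs were summed per preparation and tested with edgeR's quasi-likelihood test, with p-values adjusted by Benjamini-Hochberg over the 8891 genes tested. The 290 genes whose symbols start with U were not analysed here, since the tables used for Control preparation 1 give no values for them. At an adjusted p under 0.05, 2813 genes or 31.6% were called, 1457 higher in Fracture (16.4%) and 1356 lower (15.3%), with a median log2 fold change of -0.03 over all genes. A gene is said to have risen or fallen only where it was called. Counts of list genes that rose or fell are to be read against these 16.4% and 15.3% of all genes. The number of calls was 2662 and 2805 without Control preparations 1 and 2, 2198 without Fracture preparation 1 and 1848 without Fracture preparation 2. In each of these fits a group of 1 preparation is assumed to vary like the other group, and the fewer samples alone can lower a count. With the missing genes counted as 0, chosen after seeing the data, 2104 genes were called.

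Most genes of the contractile apparatus fell. Of 30 genes on the list, which leaves out Myh11, Acta2 and Tagln, 25 fell and 2 rose, with a median log2 fold change of -1.24, against the 15.3% and 16.4% of all genes called lower and higher. Without single preparations 22 to 25 of them fell. Lmod1 stood at 928 and 846 CPM in Control and 255 and 240 CPM in Fracture. It fell by 1.84 on the log2 scale (SE 0.17, adjusted p 6.13e-05, edgeR). Mylk, the myosin light chain kinase that starts contraction, stood at 1979 and 1834 against 912 and 864 CPM and fell by 1.10 (SE 0.18, adjusted p 0.00156, edgeR). In both genes the preparations of a group lay close together and the groups far apart. Synm, the intermediate filament protein synemin, stood at 394 and 366 against 58.4 and 64.7 CPM and fell by 2.62 (adjusted p 1.41e-05). Ldb3, which binds actinin at the filament anchor, stood at 147 and 148 against 13.5 and 26.3 CPM and fell by 2.82 (adjusted p 5.58e-05). Pgm5, or aciculin, of adhesion plaques, fell by 3.14 from 56.8 and 27.2 CPM to 0 and 8.77 CPM (adjusted p 0.00515). The fall of Smtn was smaller, by 1.23 from 307 and 178 to 105 and 104 CPM (adjusted p 0.00433), and Cnn1 fell by 0.88 from 316 and 182 to 136 and 138 CPM (adjusted p 0.0208, edgeR). The call of Cnn1 was lost without Control preparation 1 (-0.38, adjusted p 0.210) and without Fracture preparation 2 (-0.89, adjusted p 0.0896).

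A pair of contractile genes went the other way. Actg2 (chromosome 6, 83512905 to 83536265, minus strand) is the actin of gut, bladder and uterine muscle and is low in most arteries. It stood at 79.9 and 58.4 CPM in Control and 726 and 728 CPM in Fracture, a log2 fold change of 3.37 (SE 0.20, adjusted p 1.25e-05, edgeR). Des, the muscle intermediate filament desmin, stood at 243 and 279 against 502 and 411 CPM, a rise of 0.81 (SE 0.17, adjusted p 0.00584, edgeR). The rise of Actg2 was spread over many cells. With every cell thinned to 1000 UMIs, 4.57% and 4.05% of Control cells and 33.8% and 30.9% of Fracture cells held an Actg2 UMI, and Lmod1 was found in 52.5% and 57.2% against 27.0% and 20.2%. Without thinning the shares were 12.5% and 11.6% against 78.4% and 66.0% for Actg2. Cells rich in haemoglobin RNA, which should lack both genes, held neither after thinning, where a count of 0 allows a UMI at that depth in up to 25% and 4.41% of the Control and 2.31% and 1.604% of the Fracture cells and sets no limit on expression, at median depths of 10800.5 and 10953 UMIs in Control and 5416 and 6205 in Fracture.

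**Figure D2:**
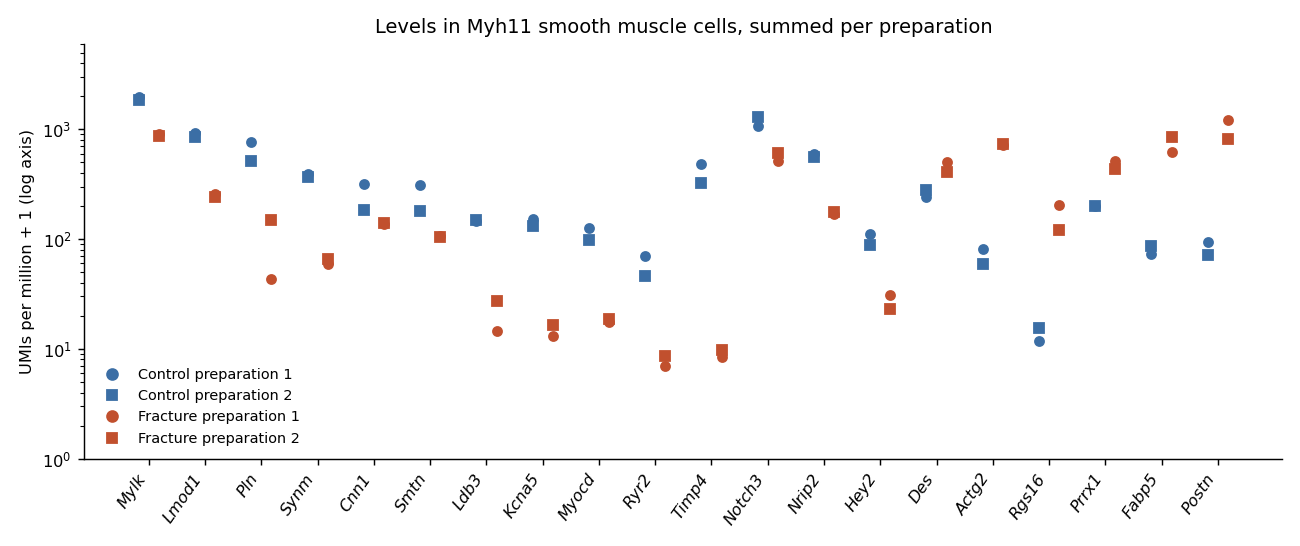
Levels of 20 named genes in Myh11 smooth muscle cells, as CPM plus 1 on a log axis, with 1 point per preparation. Contractile, ion channel and Notch genes to the left lie lower in Fracture (Lmod1 at 255 and 240 against 928 and 846), while Des, Actg2, Rgs16, Prrx1, Fabp5 and Postn to the right lie higher.

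The CArG box, the element bound by serum response factor, was looked for on both strands in the 250 bases before each annotated start (RefSeq, GRCm38.p6). It was found in 5 of the 28 contractile genes with an entry, Acta2 included, or 17.9%, against 439 of 27025 genes, or 1.62%. Among those 5, Myl9, Myl6, Ldb3 and Fbxl22 fell and Vcl was not called, and the other genes of the list that fell had no match or no entry. Actg2, Myh11 and Tagln have no entry and were not searched. The matches in the 4 called genes are shown, and no link between the box and the fall was tested. Capitals mark the box, and each sequence reads in the direction of transcription.
Myl9: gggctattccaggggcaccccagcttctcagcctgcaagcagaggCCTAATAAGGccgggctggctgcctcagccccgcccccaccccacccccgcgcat
Myl6: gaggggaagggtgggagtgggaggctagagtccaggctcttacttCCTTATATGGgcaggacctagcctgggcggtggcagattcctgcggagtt
Ldb3: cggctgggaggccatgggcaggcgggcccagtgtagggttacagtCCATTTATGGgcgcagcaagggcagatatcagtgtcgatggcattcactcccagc
Fbxl22: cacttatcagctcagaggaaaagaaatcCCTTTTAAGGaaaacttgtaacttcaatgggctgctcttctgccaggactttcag

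The box lies 161 bases before the start of Myl9 (chr2:156775258-156775357, plus strand), 50 before that of Myl6 (chr10:128493010-128493104, minus strand), 109 before 1 of the starts of Ldb3 (chr14:34588662-34588761, minus strand) and 222 before that of Fbxl22 (chr9:66514761-66514843, minus strand). Myl9, the regulatory light chain that the kinase phosphorylates, fell by 1.57 (SE 0.24, adjusted p 0.000942, edgeR), and Myl6, the essential light chain, by 1.07 (SE 0.22, adjusted p 0.00468, edgeR). Fbxl22, an F-box protein of striated and smooth muscle, fell by 1.14 (SE 0.33, adjusted p 0.0253, edgeR). These 3 are named after their values were seen. A match is a description of these letters and not of binding.

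Genes that move calcium and set the membrane voltage fell with the filaments. Of 20 tested, 14 fell and 2 rose, with a median log2 fold change of -1.21, beside 15.3% of all genes lower and 16.4% higher. Kcna5, a voltage-gated potassium channel of vascular muscle, stood at 151 and 130 CPM in Control and 12.0 and 15.3 CPM in Fracture and fell by 3.34 (SE 0.24, adjusted p 1.81e-05, edgeR). Ryr2, a calcium release channel of the sarcoplasmic reticulum, stood at 69.9 and 44.8 against 5.99 and 7.67 CPM and fell by 3.08 (adjusted p 0.000285). Cacnb2, a subunit of the L-type calcium channel, fell by 2.72 from 68.9 and 84.7 to 10.5 and 12.1 CPM (adjusted p 0.000112). Each of these left the groups well apart. Phospholamban Pln, the brake on the calcium pump, stood at 772 and 519 CPM in Control but at 41.9 and 148 CPM in Fracture, a fall of 2.72 with a wider error (SE 0.42, adjusted p 0.000986, edgeR). Few Fracture cells held any, for the tenth of cells with the highest level held 96.4% and 81.5% of its UMIs in Fracture and 35.3% and 42.2% in Control, and the highest Fracture cells reached 9.79 and 34.2 UMIs per 10000 against 50.5 and 42.4 in Control. Kcnj8, the ATP-sensitive potassium channel of pericytes and small vessels, rose by 1.54 from 35.8 and 63.2 to 115 and 152 CPM (adjusted p 0.00211).

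Receptors and enzymes that answer vasoactive signals gave a like count, with 12 of 20 tested genes lower and 3 higher and a median of -1.06. Over all genes 15.3% were lower and 16.4% higher. Rgs4, which shortens signals of constrictor receptors, stood at 571 and 647 CPM in Control and 133 and 179 CPM in Fracture and fell by 1.95 (SE 0.19, adjusted p 8.45e-05, edgeR). Tbxa2r, the thromboxane receptor, fell by 2.04 from 47.5 and 27.2 to 10.5 and 8.77 CPM (adjusted p 0.00370), and Olfr78, an olfactory-type receptor known in vessel walls, by 1.78 from 136 and 155 to 34.4 and 48.2 CPM (adjusted p 0.000221). Rgs16, of the same family as Rgs4, went against these, from 10.7 and 14.6 to 205 and 120 CPM, a rise of 3.74 (SE 0.31, adjusted p 3.42e-05, edgeR). Rgs4 and Rgs16 thus moved in opposite directions.

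Among 22 transcription factors of smooth muscle, 7 fell and 1 rose, with a median of -0.40, beside 15.3% and 16.4% of all genes lower and higher. In cells chosen after thinning to 3000 UMIs 2 of 22 fell and 2 rose, beside 8.21% and 10.9% of all genes. The median was -0.38 without Fracture preparation 2. Myocd, the coactivator that switches on contractile genes, stood at 124 and 96.3 CPM in Control and 16.5 and 17.5 CPM in Fracture and fell by 2.701 (SE 0.25, adjusted p 6.22e-05, edgeR). Foxc1, a forkhead factor of mural and marrow niche cells, fell by 1.86 from 224 and 199 to 58.4 and 58.1 CPM (adjusted p 6.15e-05). Klf2, a factor known from blood flow in endothelium, fell by 1.01 from 722 and 307 to 256 and 260 CPM (adjusted p 0.0386, edgeR), and its call was lost without Control preparation 1 (-0.22, adjusted p 0.494) and without Fracture preparation 2 (-1.02, adjusted p 0.122). Mef2c, a partner of myocardin named after its values were seen, fell by 0.98 from 481 and 567 to 244 and 284 CPM (adjusted p 0.00239). Prrx1, a homeobox factor of limb mesenchyme, rose by 1.23 from 201 and 200.5 to 514 and 431 CPM (SE 0.16, adjusted p 0.000441, edgeR).

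Of 13 Notch genes tested 6 fell and none rose, with a median of -0.38, against 15.3% of all genes called lower. With 4 or more Myh11 UMIs 3 of 12 fell. A further version, chosen after seeing the data, left out smooth muscle cells with 50 or more UMIs of Ibsp and Col1a1 together per 10000. Without these smooth muscle cells, called high in Ibsp or Col1a1 below, 4 of 12 fell and 1 rose. The rise was that of the Notch target Heyl (0.61, adjusted p 0.0308, edgeR). Notch3, the receptor of arterial smooth muscle, stood at 1078 and 1297 CPM in Control and 512 and 610 CPM in Fracture and fell by 1.07 (SE 0.19, adjusted p 0.00227, edgeR). The ligand Jag1 and the receptor Notch2 were also called. Jag1, which smooth muscle cells present to each other, fell by 0.69 from 528 and 671 to 385 and 353 CPM (adjusted p 0.0156) and Notch2 by 0.97 from 102 and 100.2 to 65.9 and 39.5 CPM (adjusted p 0.0107). Both calls were lost with 4 or more Myh11 UMIs (-0.46, adjusted p 0.121, and -0.73, adjusted p 0.0535) and without Fracture preparation 2 (-0.62, adjusted p 0.0782, and -0.61, adjusted p 0.109), and that of Jag1 also without Control preparation 2 (-0.53, adjusted p 0.0614, edgeR). Of the Notch target repressors, Hey2 stood at 111 and 87.6 against 30.0 and 21.9 CPM and fell by 1.97 (SE 0.25, adjusted p 0.000297, edgeR). Heyl at 111 and 154 against 129 and 159 CPM (log2 fold change 0.16, adjusted p 0.582) and Hey1 at 11.7 and 18.5 against 13.5 and 16.4 CPM (0.11, adjusted p 0.861) were not called and their groups overlapped. Hes1, another target repressor, fell by 0.88 (adjusted p 0.00769, edgeR) and is named after its values were seen. Nrip2, a nuclear receptor binding protein enriched in these cells, fell by 1.75 from 600.1 and 556 to 168 and 175 CPM (adjusted p 6.37e-05). The core motif of the Notch effector RBPJ, GTGGGAA or TTCCCAC on the other strand, lay in the 250 bases before the start of 2 of 14 Notch genes with an entry (14.3%) against 6.18% of all genes. Hes1, Hey1, Heyl and Nrip2 have no entry and were not searched. The match of Hey2 is shown as the one in a gene that fell, with the motif in capitals 207 bases before the start (chr10:30842939-30843033, minus strand).
Hey2: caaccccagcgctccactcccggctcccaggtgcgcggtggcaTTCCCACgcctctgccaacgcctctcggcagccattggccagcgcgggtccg

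Of 18 pericyte-associated genes 3 rose and 2, Notch3 and the gap junction gene Gjc1, fell, beside the 16.4% and 15.3% of all genes, with a median of 0.12. Leaving out Control preparation 1 or 2 gave 2 and 6 higher and 3 and 1 lower and medians of -0.14 and 0.46, and leaving out either Fracture preparation gave 1 lower. Rgs5 stood at 6331 and 11192 CPM in Control and 8951 and 8437 CPM in Fracture, so that the groups overlapped (log2 fold change -0.01, SE 0.29, adjusted p 0.988, edgeR). Pdgfrb, the receptor that recruits mural cells, was at 421 and 608 against 584 and 589 CPM (adjusted p 0.487), Mcam at 535 and 515 against 430 and 487 CPM (adjusted p 0.414), and Cspg4, which encodes NG2, at 238 and 280 against 241 and 330 CPM (adjusted p 0.559). None of these 4 passed the test, which does not show that they were equal. Without the smooth muscle cells high in Ibsp or Col1a1, chosen after seeing the data, Cspg4 was called higher (0.57, adjusted p 0.0305, edgeR). In that setting 6 of the 18 genes rose and 1 fell, with a median of 0.49. Vtn, the plasma adhesion protein vitronectin, rose by 1.67 from 21.0 and 27.2 to 108 and 44.95 CPM (adjusted p 0.00719). Ndufa4l2, a mitochondrial protein that marks pericytes, rose by 0.61 from 649 and 860 to 1119 and 1167 CPM (adjusted p 0.0387, edgeR), a call that was lost without Control preparation 1 (0.44, adjusted p 0.208) and without Fracture preparation 2 (0.58, adjusted p 0.0959).

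The share of smooth muscle cells with Rgs5 was low in Control preparation 1 and close to the Fracture shares in Control preparation 2. With every cell thinned to 1000 UMIs, 43.7% and 71.7% of Control cells and 83.8% and 79.8% of Fracture cells held Rgs5 (p = 0.333, exact permutation test), at 56.4% and 83.8% against 89.2% and 84.0% without thinning. Thinned to 3000 UMIs, the shares were 50.2% and 80.8% against 86.5% and 79.8% and overlapped (p = 0.667, exact permutation test). Haemoglobin-rich cells held it in 0% and 0% of 12 and 68 cells and in 1.54% and 0.535% of 130 and 187 cells. Since cells with and without Rgs5 differ, the groups were also read within each kind, after thinning to 3000 UMIs, as a description without a test. In Control, the 243 and 29 cells without an Rgs5 UMI carried more Cnn1, at 501 and 400 against 151 and 121 CPM, more Synpo2, at 533 and 562 against 235 and 211 CPM, and less Notch3, at 812 and 847 against 1299 and 1365 CPM, than the 245 and 122 cells with it. The mixture of both kinds differed between the Control preparations. Within cells with Rgs5 the difference to Fracture kept its direction: Lmod1 was at 738 and 759 against 250 and 210.2 CPM, Pln at 536 and 475 against 46.7 and 39.4 CPM, and Actg2 at 72.4 and 72.8 against 680 and 798 CPM. Restricting the edgeR comparison to smooth muscle cells with Rgs5, chosen after seeing the data, called 23 of 30 contractile genes lower and 2 higher. Over all 8021 genes tested in that comparison, 1060 were lower and 1090 higher.

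**Figure D3:**
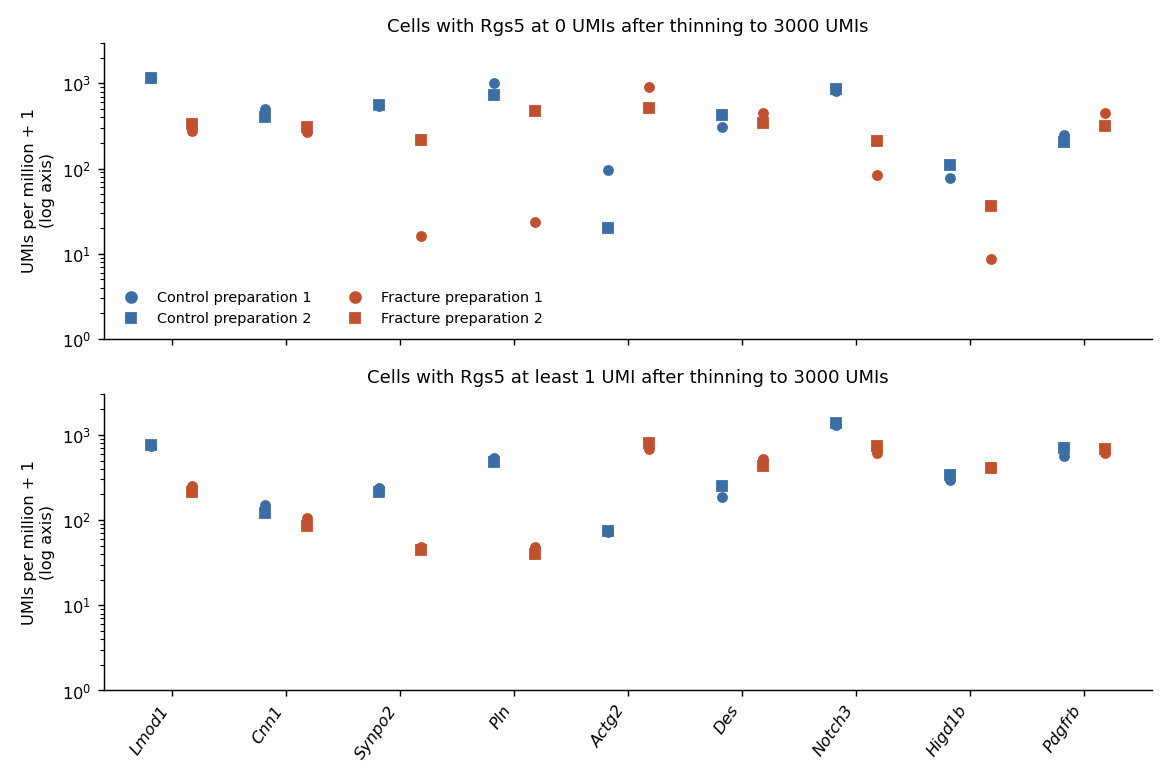
Levels of 9 genes in smooth muscle cells without (top) and with (bottom) an Rgs5 UMI after thinning to 3000 UMIs, as CPM plus 1 on a log axis, 1 point per preparation. In cells with Rgs5, Lmod1, Synpo2 and Pln lie lower in Fracture and Actg2 higher (72.4 and 72.8 against 680 and 798); the top panel rests on 10 and 19 Fracture cells.

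Most matrix genes rose, where 16.4% of all genes rose and 15.3% fell. Of 31 interstitial matrix genes 30 rose and 1, the protease inhibitor gene Timp3, fell, with a median log2 fold change of 2.46, and 29 or 30 rose when any preparation was left out. Vcan, the large proteoglycan versican, stood at 4.82 and 1.95 CPM in Control and 156 and 110 CPM in Fracture, a rise of 5.01 (SE 0.33, adjusted p 1.39e-05, edgeR). Col12a1, a collagen that coats fibrils in loaded tissue, rose by 3.93 from 47.5 and 22.4 to 707 and 446 CPM (adjusted p 3.19e-05). Timp1, the inhibitor of metalloproteinases, rose by 4.75 from 31.7 and 11.7 to 505 and 804 CPM (adjusted p 2.25e-05). Other callus cells are rich in this RNA and droplets can take up free RNA, so levels were set beside those in all kept cells. Relative to all kept cells of the same preparation, the summed list reached 10.4% and 8.51% in Control and 59.4% and 48.2% in Fracture.

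Single genes could be read against cells that should lack them. Postn, the matrix protein periostin of healing tissue, stood at 93.3 and 71.0 CPM in Control and 1225 and 821 CPM in Fracture and rose by 3.61 (SE 0.25, adjusted p 1.41e-05, edgeR). After thinning to 1000 UMIs it was found in 4.91% and 4.05% of Control and 54.1% and 34.0% of Fracture smooth muscle cells, and in 6.92% and 6.95% of haemoglobin-rich Fracture cells. Col1a1, the type I collagen chain, was found in 83.8% and 76.6% of Fracture smooth muscle cells and in 55.4% and 56.7% of haemoglobin-rich ones, and the tenth of cells with the highest level held 54.2% and 69.4% of its UMIs. For Col2a1, the cartilage collagen, the shares were 54.1% and 51.1% in smooth muscle cells and 66.9% and 64.7% in haemoglobin-rich cells, so that it did not exceed this background. The same held for the bone sialoprotein gene Ibsp, at 23.0% and 27.7% against 36.2% and 31.6%. Single cells stood far above the others, the highest holding 223 and 414 UMIs of Col2a1 and 927 and 64.8 of Ibsp per 10000 in the Fracture preparations against medians of 7.72 and 7.14 and of 1.90 and 1.77.

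Genes linked to the synthetic state rose in number, 20 of 26 against 3 that fell, with a median of 1.71. Over all genes 16.4% rose and 15.3% fell. Several of the rises, such as those of Postn, Fn1 and Dcn, were also counted in the interstitial matrix list. Relative to all kept cells of the same preparation, the summed list stood at 84.8% and 114% in Control. In Fracture it stood at 93.9% and 87.6%, so that the groups overlapped by this measure. Fn1, fibronectin, stood at 350 and 144 CPM in Control and 2639 and 1493 CPM in Fracture, a rise of 3.04 (SE 0.40, adjusted p 0.000407, edgeR), although Fracture smooth muscle cells held 41.3% and 23.5% of the level in all kept cells. Spp1, the secreted protein osteopontin, rose by 3.06 from 890 and 77.8 to 6419 and 1776 CPM (SE 0.88, adjusted p 0.0241, edgeR). In Fracture it stood at 54.2% and 16.4% of the level in all kept cells. The call of Spp1 was lost in cells chosen after thinning to 3000 UMIs (1.19, adjusted p 0.328) and without the highest doublet scores (1.35, adjusted p 0.222, edgeR). It was also lost without the smooth muscle cells high in Ibsp or Col1a1 (1.501, adjusted p 0.0987, edgeR). Counting the missing genes as 0 (adjusted p 0.113, edgeR) and DESeq2's Wald test (adjusted p 0.242) did not give it either. Cd44, the hyaluronan receptor, named after its values were seen, rose by 2.83 from 25.1 and 19.5 to 166 and 163 CPM (adjusted p 1.61e-05) and stood at 298% and 286% of the level over all Fracture cells. Basement membrane and elastic genes split, 13 of 25 rising and 6 falling, with a median of 1.11. Col15a1, a collagen that links basement membrane to stroma, rose by 4.77 from 9.64 and 6.81 to 252 and 231 CPM (SE 0.22, adjusted p 4.27e-06, edgeR). Fbn1, the microfibril protein fibrillin, rose by 2.84 from 81.6 and 79.8 to 681 and 477 CPM (adjusted p 1.79e-05) and the laminin chain Lamb1 by 2.84 from 14.5 and 21.4 to 142 and 102 CPM (adjusted p 6.13e-05), whereas the collagen IV chain Col4a5 fell by 2.53 from 79.9 and 45.7 to 2.996 and 17.5 CPM (adjusted p 0.00333).

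In the list of matrix proteases and their inhibitors, which also holds Fabp5, 13 of 17 genes rose and 2 fell, with a median of 2.32. Among all genes 16.4% rose and 15.3% fell. The rises were of 10 proteases, of the inhibitors Timp1 and Timp2 and of Fabp5, and both falls were of inhibitors, Timp4 and Timp3. Mmp2, a gelatinase, stood at 20.7 and 9.73 CPM in Control and 279 and 149 CPM in Fracture and rose by 3.63 (SE 0.35, adjusted p 6.71e-05, edgeR). Mmp14, the membrane-type metalloproteinase that activates it, rose by 2.82 from 50.3 and 82.7 to 424 and 473 CPM (SE 0.23, adjusted p 3.42e-05, edgeR). After thinning, Mmp14 was found in 29.7% and 35.1% of Fracture smooth muscle cells and 9.23% and 4.28% of haemoglobin-rich cells. The study is about septoclasts, cartilage-resorbing stromal cells marked by Fabp5 and Mmp9, and their genes were read here too. Fabp5, a fatty acid binding protein, stood at 71.6 and 85.6 against 625 and 850 CPM and rose by 3.25 (SE 0.22, adjusted p 1.39e-05, edgeR). It was found in 37.8% and 43.6% of thinned Fracture smooth muscle cells, 5.41% and 4.62% of Control ones and 4.62% and 2.67% of haemoglobin-rich Fracture cells. Mmp13, the main collagenase of cartilage, rose by 2.72 from 168 and 166 to 1890 and 328 CPM (SE 0.60, adjusted p 0.00690, edgeR). Mmp13 was not called in cells chosen after thinning to 3000 UMIs (0.56, adjusted p 0.270, edgeR) or by DESeq2's Wald test (adjusted p 0.0897). Its 16.2% and 7.45% of Fracture cells compare with 10.0% and 17.1% of haemoglobin-rich cells, and so did not exceed background in both. Mmp9 was too low for the test, at 1.03 and 0 against 17.97 and 8.77 CPM.

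Among the 12 largest rises of genes that Fracture smooth muscle cells held at or above the level over all cells were acute phase and chemokine genes, and with them genes of matrix and cell surface. Saa3, a serum amyloid A protein, had 0 UMIs in Control and 855 and 809 CPM in Fracture, where 1309 UMIs made it at least 1086-fold higher against a floor of 3 counts over the Control group (adjusted p 1.29e-06, edgeR). Hp, which encodes the haemoglobin binder haptoglobin, rose by 5.11 from 35.1 and 35.0 to 1577 and 856 CPM (SE 0.31, adjusted p 1.25e-05, edgeR). The chemokine gene Ccl2, which draws monocytes, had 2 UMIs in Control and 297 in Fracture, at 226 and 160.1 CPM, a ratio of 370 with an exact counting interval from 101 to 3066. Its neighbour Ccl7 had 0 against 112 UMIs, which is at least 92.9-fold, and the neutrophil chemokine Cxcl2 had 1 against 113 UMIs (ratio 281, 49.5 to 11207). Both Fracture preparations held the signal in each of these genes, but the criteria that chose them required this.

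Few cells carried these transcripts. The tenth of Fracture cells with the highest level held 99.8% and 100% of the Saa3 UMIs, 90.3% and 96.4% of those of Hp and 90.7% and 94.5% of those of Ccl2. Saa3 was found in 10.8% and 5.32% and Ccl2 in 20.3% and 17.0% of Fracture smooth muscle cells without thinning. In Rgs5 cells without Myh11, Saa3 stood at 12.2 and 993 CPM in Fracture. Dlk1 was less concentrated, at 64.3% and 62.7% by the same measure. Dlk1, a Notch-like surface protein of immature mesenchyme, was found in 45.9% and 36.2% of cells without thinning and rose by 7.32 from 1.03 and 0.973 to 210 and 147 CPM (SE 0.36, adjusted p 5.13e-06, edgeR), and reached 7168% and 5754% of the level in all kept Fracture cells. Lrrc15, a surface marker of matrix-forming stroma, had 1 UMI in Control against 208 in Fracture, at 208 and 75.7 CPM (ratio 518, 91.9 to 20547), with 72.7% and 92.8% by that measure. Fbln2, the matrix glycoprotein fibulin, with 83.1% and 93.7% by that measure, rose by 7.05 (SE 0.45, adjusted p 1.25e-05) and P4ha3, a collagen prolyl hydroxylase subunit, by 5.22 (SE 0.52, adjusted p 8.45e-05, edgeR). Mmp3, or stromelysin, rose by 5.49 from 5.51 and 0 to 307 and 66.9 CPM (adjusted p 0.000722) and the chemokine Cxcl5 by 5.45 from 8.61 and 0.973 to 153 and 400.2 CPM (adjusted p 9.46e-05).

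Beside 16.4% of all genes higher and 15.3% lower, 12 of 18 chemokine, cytokine and adhesion genes tested rose and 1, Cxcl12, fell (median 1.17). Of 19 interferon-stimulated genes 13 rose and none fell (median 1.05). The interferon response genes Isg15, at 31.3 and 43.8 against 102 and 96.5 CPM (log2 fold change 1.46, adjusted p 0.000938), Ifit1, at 3.10 and 8.76 against 22.5 and 24.1 CPM (2.27, adjusted p 0.00590), and Irf1, named after its values were seen, at 26.9 and 18.5 against 82.4 and 47.1 CPM (1.41, adjusted p 0.00643), and the immunoproteasome gene Psmb8, at 30.0 and 40.9 against 88.4 and 96.5 CPM (1.45, adjusted p 0.00101, edgeR), were among them. The call of Ifit1 was lost without Fracture preparation 2 (2.15, adjusted p 0.0874). Ifit3, at 2.07 and 7.78 against 20.97 and 10.96 CPM (2.02, adjusted p 0.0333, edgeR), was not called without Control preparation 1 (1.002, adjusted p 0.303), Fracture preparation 1 (1.45, adjusted p 0.338) or Fracture preparation 2 (2.38, adjusted p 0.0972). Ccl11, or eotaxin, rose by 4.49 from 2.41 and 0 to 56.9 and 27.4 CPM (adjusted p 0.000509).

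The largest falls, among genes that Control smooth muscle cells held at or above the level in all kept cells, were led by Timp4. Timp4, a metalloproteinase inhibitor of heart and vessels, stood at 485 and 323 CPM in Control and 7.49 and 8.77 CPM in Fracture and fell by 5.61 (SE 0.32, adjusted p 1.15e-05, edgeR). It was found in 31.3% and 20.8% of Control smooth muscle cells and in 0% of the 74 and 94 Fracture cells after thinning, which allows up to 4.05% and 3.19% of cells with a UMI at that depth (3 counts) and sets no limit on cells expressing it, and in 62.7% and 45.1% against 4.05% and 4.26% without it. Rergl, a small GTPase gene, had 206 UMIs in Control and 2 in Fracture, a ratio of 41.4 (exact counting interval 11.3 to 344), and the collagen gene Col19a1 had 223 against 3 (29.9, 10.1 to 146). Thrb, a thyroid hormone receptor, fell by 4.58 from 98.8 and 123 to 7.49 and 2.193 CPM (SE 0.38, adjusted p 3.43e-05, edgeR).

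Transporters and channels made up several of the others. The organic cation transporters Slc22a2, at 66.1 and 74.9 against 4.49 and 1.10 CPM, and Slc22a3, at 52.0 and 46.7 against 1.498 and 4.39 CPM, fell by 4.73 and 3.94 (adjusted p 5.37e-05 and 0.000112, edgeR). The potassium channel Kcnj12 fell by 3.69 from 41.7 and 41.8 to 0 and 5.48 CPM (adjusted p 0.000757). Ntf3, a nerve growth factor that arterial muscle gives to sympathetic nerves, stood at 148 and 151 against 4.49 and 16.4 CPM and fell by 3.71 (SE 0.33, adjusted p 4.81e-05, edgeR). Plin4, a lipid droplet coat protein, fell by 3.80 from 155 and 106 to 2.996 and 14.3 CPM (adjusted p 0.000114), the secreted protein gene Adamtsl1 by 3.46 from 209 and 186 to 21.0 and 15.3 CPM (adjusted p 1.25e-05) and Xirp1, an actin-binding protein of muscle attachments, by 3.43 from 94.7 and 81.7 to 4.49 and 10.96 CPM (adjusted p 6.71e-05).

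Genes of the cell cycle rose, 24 of 28 tested and none lower, with a median of 2.21, and 22 to 25 rose without single preparations. Top2a, the topoisomerase that untangles replicated DNA, stood at 49.2 and 10.7 CPM in Control and 276 and 182 CPM in Fracture (log2 fold change 2.703, SE 0.42, adjusted p 0.00101, edgeR). Mki67, which coats mitotic chromosomes, stood at 41.3 and 17.5 against 231 and 125 CPM (2.43, adjusted p 0.000743), and Cdk1, the kinase of mitotic entry, at 32.0 and 9.73 against 226 and 168 CPM (3.02, adjusted p 0.000171). Tpx2 of the spindle rose by 3.09 (adjusted p 7.77e-05, edgeR), the survivin gene Birc5 by 2.90 from 24.1 and 4.87 to 148 and 116 CPM (adjusted p 0.000498) and the checkpoint kinase gene Bub1 by 2.89 from 4.13 and 0.973 to 31.5 and 18.6 CPM (adjusted p 0.00232). Thinned to 1000 UMIs, Top2a or Mki67 was found in 2.88% and 1.16% of Control and 13.5% and 13.8% of Fracture smooth muscle cells (p = 0.333, exact permutation test), and 7.19% and 7.51% against 35.1% and 30.9% without thinning. Among cells with at least 4 UMIs of Myh11 it was 2.51% and 1.22% against 8.93% and 4.92%. Rgs5 cells without Myh11 stood at 8.82% and 0% in Control and 13.04% and 12.2% in Fracture. Haemoglobin-rich cells divide themselves and could not serve as background here.

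In a further version each cell was thinned to 3000 UMIs before it was chosen, and its full UMIs were then summed. There 1475 of 7712 genes were called, 10.9% higher and 8.21% lower. Then 19 contractile genes fell and 2 rose (median -0.86), 12 of 23 cell cycle genes rose (median 1.41) and 26 of 31 interstitial matrix genes rose (median 2.49). Falls numbered 6 of 20 for vasoactive genes and 2 of 22 for transcription factors, and rises 5 of 15 for chemokine and 8 of 14 for interferon-stimulated genes. With 4 or more Myh11 UMIs required, where 12.6% of 8067 genes were higher and 884 genes lower, 22 contractile, 12 ion channel, 7 vasoactive and 3 transcription factor genes fell, and 26 of 31 interstitial matrix, 23 of 27 cell cycle and 8 of 15 interferon-stimulated genes rose. Single calls were lost too. After thinning these were 23 of the 134 calls among the genes chosen to be named, including Cnn1, Pgm5, Mef2c, Hes1, Jag1, Itga8, Tpx2, Birc5, Gsn and Fabp4, and with 4 or more Myh11 UMIs 12 of 130, including Cnn1, Klf2, Jag1, Notch2, Mef2c, Hes1 and Fabp4. DESeq2's Wald test called 745 of 11387 genes higher and 545 lower. It did not call 30 of the 145, among them Cnn1, Pgm5, Notch2, Itga3, Plvap and Emcn. By that test 7 of 21 vasoactive and 4 of 22 transcription factor genes were lower and 7 interferon-stimulated genes higher.

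The remaining pathways are given by the same counts, to be read against the 16.4% of all genes higher and 15.3% lower. In the TGF-beta and BMP list 5 of 24 rose and 7 fell (median -0.05). Tgfbi, a matrix protein induced by TGF-beta, rose by 5.43 from 1.72 and 5.84 to 178 and 82.2 CPM (SE 0.52, adjusted p 6.38e-05, edgeR) and the co-receptor Eng by 1.39 from 34.8 and 37.0 to 86.9 and 98.7 CPM (adjusted p 0.000731). The co-receptor Tgfbr3 fell by 1.504 (adjusted p 0.00348) and Ltbp1, which stores latent TGF-beta in matrix, by 1.41 from 359 and 245 to 98.9 and 128 CPM (adjusted p 0.00115, edgeR). Of PDGF, VEGF and angiopoietin genes 5 of 18 rose and 3 fell (median 0.12), or 3 of 16 and 1 after thinning. The VEGF receptor Flt1 rose by 3.58 from 7.92 and 2.92 to 77.9 and 77.8 CPM (adjusted p 5.32e-05), Pdgfra, a receptor of mesenchyme, by 2.80 (adjusted p 0.00148) and the ephrin Efnb1 by 1.84 (adjusted p 0.000443), and the growth factor Pdgfd fell by 2.10 from 38.2 and 38.9 to 8.99 and 8.77 CPM (adjusted p 0.000921). Among integrins 6 of 13 rose and 4 fell (median 0.10), or 5 of 12 and 1 after thinning. The fibronectin receptor chain Itga5 rose by 3.10 from 15.5 and 5.84 to 123 and 92.1 CPM (adjusted p 0.000109) and the collagen receptor chain Itga11 by 2.87 (adjusted p 0.00114), while Itga8 of contractile cells fell by 1.81 from 146 and 83.7 to 22.5 and 42.8 CPM (adjusted p 0.00284) and Itga3, a laminin receptor chain, by 1.84 (adjusted p 0.00213, edgeR).

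Of 21 glycolysis and hypoxia genes 8 rose and 2 fell (median 0.52), against 8 of 19 and 0 without Control preparation 1, 6 and 1 without Control preparation 2, 7 and 0 without Fracture preparation 1 and 5 and 0 without Fracture preparation 2. Among them were the lactate exporter Slc16a3 (log2 fold change 3.18, adjusted p 0.000168), hexokinase Hk2 (2.45, adjusted p 0.00174), lactate dehydrogenase Ldha, from 215 and 213 to 502 and 566 CPM (1.32, adjusted p 0.000273), and, named after its values were seen, the prolyl hydroxylase subunit P4ha1 (1.00, adjusted p 0.00313, edgeR). P4ha1 was not called without the smooth muscle cells high in Ibsp or Col1a1 (0.18, adjusted p 0.692, edgeR). DESeq2's Wald test did not call it either (1.01, adjusted p 0.0549). The carbonic anhydrase gene Car9 fell by 1.59 from 15.1 and 10.7 to 5.99 and 3.29 CPM (adjusted p 0.0394), but was not called without Control preparation 2 (-1.76, adjusted p 0.0639), Fracture preparation 1 (-1.99, adjusted p 0.0917) or Fracture preparation 2 (-1.16, adjusted p 0.320, edgeR). Of 23 immediate early and stress genes, which respond to tissue digestion, 3 rose and 4 fell (median -0.02). Without Control preparation 1 or 2, 8 and 3 rose and 1 and 9 fell (medians 0.53 and -0.34), so that this list depended on which Control preparation was used, and 1 fell without Fracture preparation 2. Ier3 rose by 1.45 (adjusted p 0.000722), Gadd45b by 1.33 (adjusted p 0.00166) and Egr2 by 1.58 from 11.02 and 2.92 to 23.96 and 26.3 CPM (adjusted p 0.0253). Btg2, a brake on division, fell by 1.37 from 1299 and 429 to 350.5 and 320.1 CPM (adjusted p 0.0255), and the small heat shock protein gene Hspb1, named after its values were seen, by 1.10 from 1046 and 1113 to 457 and 545 CPM (adjusted p 0.00146, edgeR). Btg2 lost its call without Control preparation 1 (-0.33, adjusted p 0.294), and Btg2 and Egr2 lost theirs without Fracture preparation 2 (-1.31, adjusted p 0.105, and 1.54, adjusted p 0.153, edgeR). Of 14 glucocorticoid-responsive genes and metallothioneins 4 rose and 5 fell (median -0.19), or 2 and 6 without Fracture preparation 1. The sulfotransferase Sult1a1 fell by 3.33 (adjusted p 0.000965), and the hormone-induced factors Zbtb16 and Klf9 fell by 2.81 and 1.39 (adjusted p 0.00168 and 0.000203), Klf9 from 396 and 424 to 165 and 148 CPM. The metal buffer Mt2 rose by 2.43 (adjusted p 0.000768, edgeR).

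**Figure D4:**
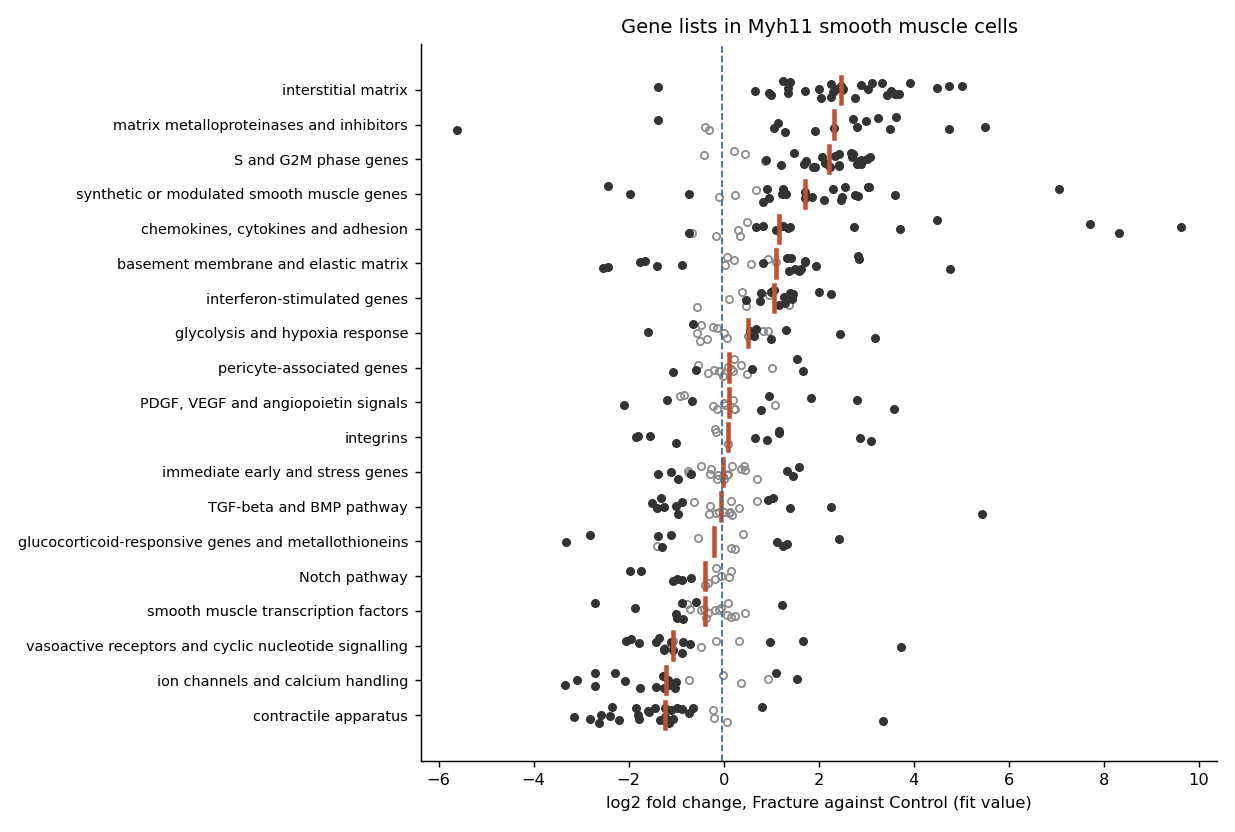
Log2 fold change of Fracture against Control in Myh11 smooth muscle cells for each tested gene of 19 lists, filled where called by edgeR at an adjusted p under 0.05 and open where not, with the median of each list as a vertical bar and the median of all genes (-0.03) as a dashed line. Matrix and cell cycle lists lie to the right (medians 2.46 and 2.21) and the contractile, ion channel and vasoactive lists to the left (-1.24, -1.21 and -1.06).

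Markers of other cell types moved with the groups and are given whole, and their part in the results was not tested. The marker counts here and below are to be read against the 16.4% of all genes higher and 15.3% lower. Of 12 chondrocyte genes tested 8 rose and none fell, and the summed list reached 3.48% and 1.72% of that in all kept cells in Control and 6.01% and 3.72% in Fracture. Col10a1, of hypertrophic cartilage, rose by 4.89 from 43.7 and 18.5 to 1710 and 317 CPM (adjusted p 0.000698), Col2a1 by 2.83 from 330.2 and 73.0 to 1671 and 1290 CPM (adjusted p 0.00231), Col9a2 by 2.24 (adjusted p 0.00393) and Col9a3 by 2.10 (adjusted p 0.00350, edgeR). Leaving out Control preparation 1 or 2 gave 12 and 10 of 13, leaving out either Fracture preparation 8, and leaving out the called doublets 7. Of 10 osteoblast genes 4 rose, or 2 without Fracture preparation 1, 2 of 9 without the called doublets, 1 of 8 after thinning and 0 of 6 without the highest doublet scores, and the list stood at 9.07% and 13.6% of that in all kept cells against 34.3% and 6.11%. Ibsp, at 292 and 507 against 3896 and 441 CPM, overlapped between the groups although it was called (2.44, adjusted p 0.0288), and without Fracture preparation 1 it was not (0.17, adjusted p 0.679, edgeR). Smpd3 rose by 1.54 (adjusted p 0.0101), Alpl by 0.85 (adjusted p 0.00929) and Runx2, the osteoblast transcription factor, by 1.22 (adjusted p 0.0491, edgeR). Smpd3 and Runx2 lost their calls without Fracture preparation 1 (1.35, adjusted p 0.0587, and 0.84, adjusted p 0.199) and without the called doublets, and Alpl its call without Fracture preparation 2 (0.69, adjusted p 0.0894). Without the smooth muscle cells at 50 or more UMIs of Ibsp and Col1a1 together per 10000, chosen after seeing the data, 587 and 172 Control but only 41 and 68 Fracture cells remained. Col1a1 alone had upper quartiles of 79.9 and 49.5 per 10000 in the Fracture preparations, so this limit reached common Fracture cells. Col1a1 is also on the interstitial matrix list. Then 2057 genes were called, 13.7% of genes being higher and 11.2% lower, and 23 contractile, 8 vasoactive, 4 transcription factor and 3 integrin genes fell, while 24 of 31 interstitial matrix and 25 of 28 cell cycle genes rose.

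Blood cell markers moved in both directions, 6 of 12 up and 5 down, or 4 and 10 of 17 without Control preparation 2 and 4 and 7 of 18 without Fracture preparation 1. Without the highest doublet scores, chosen after seeing the data, 2 of 10 rose and 5 fell. Summed, they came to 15.2% and 4.28% of the level in all kept cells in Control and to 146% and 168% in Fracture. Of the 6 rises 4 were haemoglobin genes, among them Hbb-bs at 87.4 and 67.1 against 3084 and 4333 CPM (log2 fold change 5.57, adjusted p 5.13e-06, edgeR). The others included Car2, a carbonic anhydrase gene of red cells. Among the falls were the platelet genes Ppbp and Pf4 and the basophil protease genes Prss34 and Mcpt8. Ppbp had 927 UMIs in Control and 3 in Fracture, a ratio of 124 (exact counting interval 42.3 to 603), Prss34 had 650 and 3 (87.0, 29.7 to 423) and Mcpt8 613 and 3 (82.1, 28.0 to 399), 598 of the latter in Control preparation 1 (adjusted p 3.43e-05, 0.00261 and 0.0106, edgeR). Mcpt8 was not called without Fracture preparation 2 (-5.29, adjusted p 0.0681, edgeR). Pf4, named after its values were seen, fell by 5.19 from 380 and 221 to 7.49 and 8.77 CPM (adjusted p 1.66e-05, edgeR). The platelet receptor gene Clec1b, the largest fall outside the condition on levels, had 245 UMIs in Control and 0 in Fracture, at least 32.8-fold. Each of these platelet and basophil genes stood below the level in all kept cells in every preparation.

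Of 7 endothelial genes 4 rose, beside 16.4% of all genes, though calls were lost under the alternatives given below. The 4 were Plvap, higher by 2.54 (adjusted p 0.00260), Egfl7 by 1.49 (adjusted p 0.0370), Emcn by 1.46 (adjusted p 0.00522, edgeR) and Eng as above. The summed list stood at 55.7% and 50.4% against 72.4% and 75.8% of the level over all cells, with 10 of its 17 genes too low to test. In cells chosen after thinning to 3000 UMIs Plvap was not called (0.64, adjusted p 0.580, edgeR). Without Fracture preparation 2 the values of Plvap and Emcn were 2.56 and 1.35 (adjusted p 0.0934 and 0.0559), and Egfl7, at 4.48 and 2.92 against 11.98 and 10.96 CPM, was not called when any of the 4 preparations was left out (1.33 to 1.95, adjusted p 0.181 to 0.305, edgeR). Of 7 fibroblast and tendon genes 3 rose and 1 fell, or 6 of 9 and 1 without Control preparation 1 and 1 of 8 and 3 without Fracture preparation 1. Dpt rose by 3.62 (adjusted p 0.00689), Igfbp6 by 2.97 from 13.4 and 0 to 132 and 23.0 CPM (adjusted p 0.0184) and Fmod by 1.35 from 86.8 and 18.5 to 169 and 134 CPM (adjusted p 0.0418), and Gsn fell by 0.74 (adjusted p 0.0103, edgeR). Dpt and Igfbp6 were not called without Fracture preparation 1 (2.34, adjusted p 0.110, and 1.404, adjusted p 0.181), nor Fmod and Gsn without Fracture preparation 2 (1.53, adjusted p 0.0727, and -0.67, adjusted p 0.0562, edgeR). Of 7 marrow stromal genes Wisp2 rose by 3.80 (adjusted p 0.00104) and 4 fell, or 2 without Fracture preparation 2, Lepr and Kitl by 3.93 and 1.51 (adjusted p 0.00451 and 0.00174) and Ebf3 by 1.10 from 33.4 and 63.2 to 22.5 and 19.7 CPM (adjusted p 0.0460, edgeR). Ebf3 was not called without Control preparation 2 (-0.68, adjusted p 0.126) or Fracture preparation 2 (-1.01, adjusted p 0.173, edgeR). Of 2 adipocyte genes Pnpla2 and Fabp4 fell by 2.87 and 0.86 (adjusted p 1.66e-05 and 0.0151, edgeR), Fabp4 being high in the smooth muscle cells themselves at 2982 and 3639 against 1589 and 2054 CPM and not called without Fracture preparation 1 (-0.67, adjusted p 0.0646). Skeletal muscle genes summed to 37.9 and 23.4 against 16.5 and 18.6 CPM, with Tcap the only one tested, which fell by 2.52 from 30.6 and 17.5 to 0 and 7.67 CPM (adjusted p 0.0161) and was not called without Control preparation 1 (-1.95, adjusted p 0.0676). Of the Schwann cell genes Pmp22 rose by 0.95 (adjusted p 0.00574), while S100b did not pass (0.63, adjusted p 0.561) except without Control preparation 1 (6.70, adjusted p 0.00197, edgeR).

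The last comparison asked which fracture effects differed between the smooth muscle cells and the Rgs5 cells without Myh11. It was tested as a class-by-group term in edgeR, with the preparation as a block, on 9323 genes, of which 145 were called (1.56%). With at least 4 Myh11 UMIs only 16 genes were called, and 51 with only Rgs5-positive smooth muscle cells. Without Control preparations 1 and 2 there were 234 and 395 calls, and without Fracture preparation 2 there were 238. The other class changes what is compared. Besides Prg4 it held far more Fn1, at 18097 and 21546 CPM in Control and 10872 and 13415 CPM in Fracture, and its fibroblast and tendon markers summed to 23446 and 32423 against 13187 and 29431 CPM, where the smooth muscle cells had 1764 and 1291 against 1358 and 1002 CPM. Taking only the Rgs5 cells low in Prg4, chosen after seeing the data, 101 genes were called and 40 of the 145 were among them, while 16 of the 145 had the opposite sign. Of the 22 genes named here and called at first, 10 were called both ways. With cells chosen after thinning to 3000 UMIs, 4 of these 10 were called, namely Fbn1, Ogn, Pla1a and Synm, and the difference of Ltbp1 was 0.187.

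A first set of those 10 had the higher fold change in smooth muscle cells. Pla1a, a lysophospholipid enzyme, stood at 13.8 and 18.5 against 105 and 105 CPM in smooth muscle cells and at 251 and 380 against 140 and 95.5 CPM in the Rgs5 cells. The difference of the effects was 3.96 on the log2 scale (adjusted p 0.000110, edgeR), and it was called under every alternative run. Col12a1 stood at 133 and 57.4 against 591 and 341 CPM in the Rgs5 cells, where it rose by 2.32 (adjusted p 0.0320), and that fold change was below the one in smooth muscle cells by 1.603 (adjusted p of the difference 0.0460). Fbn1, not called in the Rgs5 cells, stood at 256 and 316 against 575 and 661 CPM, with a fold change lower by 1.52 (adjusted p of the difference 0.0492, edgeR). Both calls lie near the threshold. That of Col12a1 was lost under 10 alternatives, among them no filter on low counts (1.46, adjusted p 0.108), thinning (0.87, adjusted p 0.489) and leaving out Control preparation 1 (1.47, adjusted p 0.312), Fracture preparation 1 (1.63, adjusted p 0.0809) or Fracture preparation 2 (1.56, adjusted p 0.0924). That of Fbn1 was lost under 7, among them no filter on low counts (1.38, adjusted p 0.0896), at least 4 Myh11 UMIs (1.65, adjusted p 0.248) and leaving out Fracture preparation 1 (1.13, adjusted p 0.332, edgeR). For these matrix genes the smooth muscle cells started lower and ended near the level of the Rgs5 cells. Chi3l1, a chitinase-like secreted protein, gave 10.56 (adjusted p 1.87e-05), but its 518 CPM in the Rgs5 cells came from Control preparation 1 alone, the other 3 preparations being at 0 to 1.52 CPM, so that this value rests on 1 preparation (5.54 and adjusted p 1.00 without it).

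A second set of the 10 had the lower fold change in smooth muscle cells. The Control Rgs5 cells numbered 38 and 18 and held only 202850 and 139375 UMIs of all genes. Their low CPM values below thus rest on few UMIs, and the size of these differences is uncertain. Ogn, the small proteoglycan osteoglycin, stood at 319 and 154 against 37.4 and 29.6 CPM in smooth muscle cells and at 59.2 and 7.17 against 186 and 100.02 CPM in the Rgs5 cells (difference -4.98, adjusted p 0.000113, edgeR). Ltbp1 went from 359 and 245 to 98.9 and 128 CPM in the former and from 34.5 and 43.0 to 102 and 159 CPM in the latter (-3.36, adjusted p 0.000942), and Synm, 394 and 366 against 58.4 and 64.7 CPM in the former, stood at 113 and 57.4 against 94.4 and 107 CPM in the latter (-2.99, adjusted p 0.00106). The transcript 2900026A02Rik stood at 262 and 210 against 50.9 and 48.2 CPM in smooth muscle cells and 14.8 and 7.17 against 35.0 and 28.4 CPM in Rgs5 cells (-3.86, adjusted p 0.00320). Mmp13 rose from 19.7 and 0 to 1041 and 368 CPM in the Rgs5 cells, a higher fold change than in smooth muscle cells (difference -3.65, adjusted p 0.0209, edgeR). The call of Mmp13 was lost after thinning (-1.74, adjusted p 0.514), with at least 4 Myh11 UMIs (-3.72, adjusted p 0.221), without the called doublets (-2.45, adjusted p 0.113), without the smooth muscle cells high in Ibsp or Col1a1 (-1.84, adjusted p 0.425) and with Rgs5-positive smooth muscle cells alone (-2.49, adjusted p 0.220), and that of 2900026A02Rik after thinning (-1.87, adjusted p 0.0819) and with at least 4 Myh11 UMIs (-3.69, adjusted p 0.0540). Pnpla2, a lipase of fat droplets, stood at 353 and 355 against 58.4 and 39.5 CPM in smooth muscle cells and at 24.6 and 14.3 against 19.8 and 19.3 CPM in the Rgs5 cells (-2.99, adjusted p 0.0140), and was not called after thinning (-1.23, adjusted p 0.320) or with at least 4 Myh11 UMIs (-2.68, adjusted p 0.130, edgeR). As ratios, the levels of both classes lay closer together in Fracture than in Control in these genes too. They were picked for a difference of effects, so this is a description only. In plain CPM the gap of Mmp13 was wider in Fracture preparation 1 than in Control preparation 1. Ogn, Ltbp1 and Synm changed which class was higher.

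**Figure D5:**
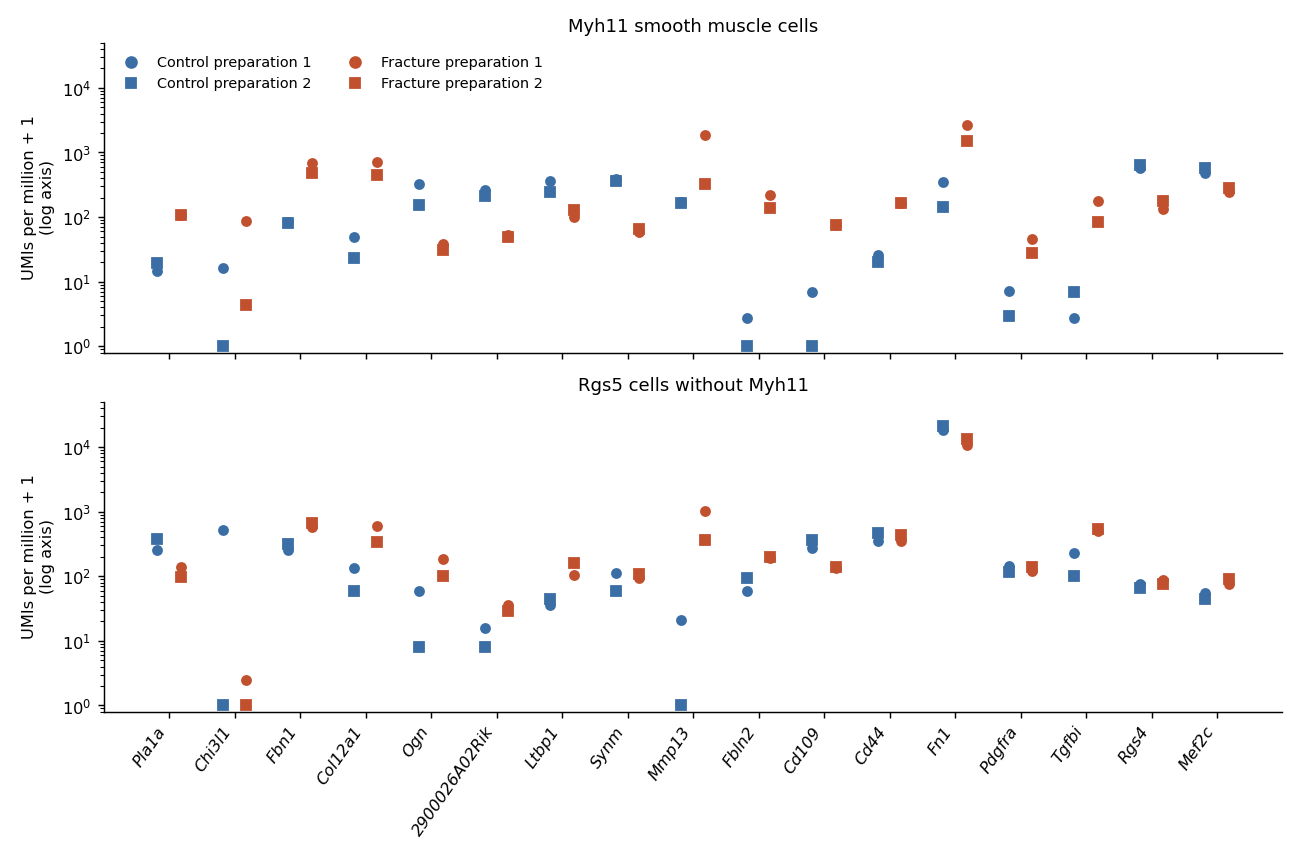
Levels of 17 genes in Myh11 smooth muscle cells (top) and in Rgs5 cells without Myh11 (bottom), as CPM plus 1 on a log axis, 1 point per preparation. Ogn, Ltbp1 and Synm lie lower in Fracture at the top but not at the bottom, and the single Control point of Chi3l1 at 518 in the bottom panel carries its difference.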

How the data were processed

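Droplet single-cell RNA libraries (10x Chromium, 3′ chemistry v3) of Control and Fracture femurs were analysed, 2 preparations per group with 2 libraries each. The deposited tables hold whole-number UMI counts per gene and barcode, 1 table per library, with no normalisation by the authors, and all 28956 genes and 48903 barcodes were read. The submitters' processing notes name STAR 2.7.3a, UMI-tools 1.0.0, bcl2fastq 2.19.1.403, featureCounts 1.6.4 and the build mm10, while the study's methods name another counter and annotation, and which of these made the tables could not be settled. Reads of near-identical genes such as the haemoglobin or Saa and Ccl families could be split differently by either.

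Cells were kept and the smooth muscle cells chosen as given above, the depth of a preparation being 667665 to 2904673 UMIs over these cells. The cell rule, the 28 gene lists and the tests were chosen with earlier results of these data known. The 290 genes whose symbols start with U, for which the tables used of Control preparation 1 give no values, were left out of every test. They held 1.42% to 1.54% of the UMIs of smooth muscle cells in the other preparations, and the totals behind the CPM of Control preparation 1 do not include them. Counts were summed per preparation and tested with edgeR 4.0.16 (R 4.3.3; TMM, filterByExpr, quasi-likelihood test, adjusted p under 0.05). The scripts were tested on simulated data. Shares were compared with two-sided exact permutation tests (scipy 1.17.1), with exact binomial intervals of 95%, and a count of 0 was taken to allow 3 counts; both cover counting error only. Doublets were scored with scrublet in scanpy 1.11.5. Cells were thinned with numpy 2.4.6 to 1000 or 3000 UMIs. In the gene tests thinning only chose the cells, and their full UMIs were summed.

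The genes named were those of the study's theme, the contractile and pericyte genes shown, the 12 largest rises and 12 largest falls among called genes that did not overlap between groups, had a mean of at least 20 CPM and stood at or above the level in all kept cells in both preparations of the higher group, the 3 largest each way without that last condition, 2 to 4 genes of each list by size of change, and the 5 largest differences of each sign between cell classes. Others are said to be named after their values were seen. Some genes that meet these criteria are not reported here. Replicate numbers shared by the groups were not shown to pair the preparations. Alternatives covered DESeq2 1.42.0, its size factors, no filter on low counts, the preparation number as a block, libraries as samples, cell rules, thinning and leaving out each preparation.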

Additional observations from a re-analysis of the deposited data

Results flagged for a closer look

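The fracture effect differed between smooth muscle cells and Rgs5 cells without Myh11, by the class-by-group test in edgeR with the preparation as a block, in 22 of the genes named here. The value given is the log2 fold change in smooth muscle cells minus that in the Rgs5 cells, and the adjusted p of each was under 0.05.

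Of matrix and surface genes, Fbln2 gave 5.38, Fn1 3.66, Tgfbi 3.59, Cd44 2.67, Pdgfra 2.72, Col12a1 1.603 and Fbn1 1.52, all higher by this measure in smooth muscle cells. Of contractile, signalling and regulatory genes, Synm gave -2.99, Ltbp1 -3.36, Rgs4 -2.33, Mef2c -1.89 and Adamtsl1 -3.96, and Mmp13 gave -3.65. The lipase Pnpla2 gave -2.99 and the myelin protein gene Pmp22 gave 2.09. Of the genes named for the size of the difference alone, Chi3l1 gave 10.56, Cd109 5.18, Rbp4 3.98 and Pla1a 3.96, and Ogn gave -4.98, Smim5 -4.51 and 2900026A02Rik -3.86.

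The Rgs5 cells are few and mixed. With those low in Prg4 alone, Pla1a (3.40, adjusted p 0.00280), Fbn1 (1.96, 0.0442), Col12a1 (2.184, 0.0206), Ogn (-4.63, 2.99e-05), Ltbp1 (-3.84, 0.00121), Synm (-3.42, 0.00361), 2900026A02Rik (-3.82, 0.0183), Mmp13 (-4.13, 0.01297), Pnpla2 (-3.53, 0.0495) and Chi3l1 (13.94, 5.68e-08, edgeR) were called again, and the other 12 were not. Of those 12, 3 took the opposite sign, none of them past the threshold: Fbln2 at -3.19 (adjusted p 0.877), Fn1 at -0.026 (1.0) and Pdgfra at -6.20 (0.562). Of all 145 genes called by this test, 40 were called again with the Rgs5 cells low in Prg4 and 16 changed sign. With cells chosen after thinning to 3000 UMIs, 57 were called again and 9 changed sign.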

How the results depend on the processing

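Of the 145 named calls between Fracture and Control, no fold change turned its direction under an alternative that tested it. Against 2813 genes called (1457 higher, 1356 lower), DESeq2's Wald test gave 1290 (745 and 545) and kept 115 of the named calls, and cells thinned to 3000 UMIs before the choice gave 1475 (842 and 633) and kept 111 of the 134 named genes it tested. At least 4 Myh11 UMIs gave 1904 (1020 and 884) and kept 118 of 130, and no filter on low counts gave 3427 (1601 and 1826). Leaving out each preparation gave 1848 to 2805 calls, 998 to 1462 higher and 850 to 1411 lower, the fewest without Fracture preparation 2, where 127 of the named calls were kept. With the genes whose symbols start with U counted as 0 in Control preparation 1, 2104 genes were called (1094 higher, 1010 lower) and 125 of the named calls were kept.

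The fit with the preparation number as a replicate block gave 3147 calls, 2788 of them among the 2813, and kept every named call. The correlation of the residuals of Control 1 and Fracture 1 was 0.0975, and with 2 pairs the numbers were not shown to pair the samples.

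With 8 libraries as samples the differences in share were -2.75 percentage points of all cells, -3.21 of cells without Ptprc, -21.8 cells per 100 Cdh5-positive cells and -38.3 percentage points of mural cells, each at p = 0.0286 (exact permutation test), but libraries of 1 preparation are not independent.

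The 145 genes whose effect differed between the cell classes became 16 with at least 4 Myh11 UMIs, 51 with only Rgs5-positive smooth muscle cells, 101 with Rgs5 cells low in Prg4, and 164 to 395 without single preparations. Rgs5 cells low in Prg4 turned the class-by-group differences of Fbln2 to -3.19, Fn1 to -0.026 and Pdgfra to -6.20. Choosing cells after thinning took the class-by-group difference of Mef2c to 0.0825 and that of Ltbp1 to 0.187. For Rbp4 the class-by-group difference was -7.96 after thinning, -5.66 under stricter bone and cartilage limits and between -2.93 and 4.49 without single preparations. The cause was not tested. Alternatives on Rgs5, Prg4, Ibsp and Col1a1, on the highest doublet scores and on the genes counted as 0 were chosen after seeing the data.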
